A study of Homo sapiens with 13 samples.

Results

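The AP-1 and immediate early factors are 10 transcription factor genes, FOS, FOSB, FOSL1, FOSL2, JUN, JUNB, JUND, EGR1, ATF3 and NR4A1, followed here through 13 RNA-seq libraries of A549 cells, an established line from a human lung adenocarcinoma. They were chosen by name as a gene family list, with earlier results of these data known. All 10 are listed once in each of the 3 deposited count tables, among 39735 named genes in the microRNA and CRISPRd table, 59653 in the CRISPRi table and 17976 in the PRR11 and SKA2 table. The study asked how a transcription unit on chromosome 17, made of PRR11, SKA2, miR-301a and miR-454, acts on gene expression in these cells. In the first set, CRISPRi_PRR11+SKA2 promoter-sgRNA#1 carries 1 guide that represses the shared promoter and CRISPRi_Mock sgRNA is its control. In the second, the lines LV-PRR11, LV-SKA2 and LV-P+S were made with a lentiviral CMV promoter construct for PRR11, SKA2 or both, and LV-vector-PS is their control. In the third, LV-miR301a, LV-miR454 and LV-3+4 were made in the same way for miR-301a, miR-454 or both, with LV-vector-34 as control. In the fourth, CRISPRd_miR301a-#2 and CRISPRd_miR454-#1 are labelled as knockouts of the microRNA precursors, with CRISPRd_Control as control. All lines grew in DMEM/F12 with serum. The sources used here do not give the time from the last medium change to harvest.

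Immediate early genes are transcribed within minutes when growth factors, serum, stretch or stress reach a cell, and many of their messages are short-lived. FOS and JUN proteins carry a basic leucine zipper and pair into the dimer called AP-1, which binds the DNA word TGANTCA. JUN proteins can pair with each other or with a FOS protein, while FOS proteins need a JUN partner. EGR1 is a zinc finger factor induced through serum response factor and ERK signalling, ATF3 is a stress-induced leucine zipper factor, and NR4A1 is an orphan nuclear receptor.

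Each group is 1 library, so no difference has a replicate check, no p-value was computed, and each ratio compares 2 libraries rather than 2 conditions. Total counts were 18672570 to 21717807 per library. Levels are CPM, read counts over library size after scaling, and brackets after a fold give its exact 95% counting interval. A gene was called when it differed at least 2-fold (a log2 ratio of CPM plus 0.5 of at least 1 in size) and this interval excluded equality. PRR11 stood at 0.635 CPM in the CRISPRi promoter library, against 98.8 CPM in its mock. SKA2 was at 60.4 CPM in the library labelled LV-SKA2 and at 63.5 CPM in the library labelled LV-P+S. Both lay below the 71.6 CPM of LV-vector-PS, which goes against these labels. PRR11 was at 121 CPM in LV-PRR11 and 122 CPM in the library labelled LV-P+S, against 111 CPM in the vector. These differences fall far short of the 2-fold rule, and the library labelled LV-SKA2 had 115 CPM. Reads of the MIR454 locus numbered 28 in the library labelled LV-miR301a, 468 in LV-miR454 and 0 in the library labelled LV-3+4, against 0 in LV-vector-34. Reads of the MIR301A locus numbered 29, 0 and 34 in the same treated libraries, against 0 in the vector. The library labelled for miR-301a alone thus held reads of both loci, and the library labelled for both held none of MIR454. Both loci had 0 counts in all 3 CRISPRd libraries, which leaves the knockouts unchecked. All 10 epithelial and KEAP1-mutant markers of A549 were at 1 CPM or more in every library, with a summed level of 21314 to 38068 CPM, lowest in CRISPRd_Control. The 10 markers of other cells (9 in the PRR11 and SKA2 table) summed to 18.9 to 107 CPM, with COL1A1 or ACTA2 highest in every library, and CD3E was at 0 in all 9 libraries that list it. In such bulk samples, fewer cells of a type and less RNA per cell cannot be told apart.

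The factors split by experiment. In LV-miR454, 6 of 10 were called higher than in LV-vector-34, led by FOSB, where 6.39% of all measured genes were called. In both CRISPRd libraries FOS and EGR1 were higher and FOSL1 lower than in CRISPRd_Control, but against LV-vector-34, the other control of the same table, FOS was called in neither (log2 -0.087 in CRISPRd_miR301a-#2 and 0.40 in CRISPRd_miR454-#1) and EGR1 was lower in CRISPRd_miR301a-#2 (-1.13) and not called in CRISPRd_miR454-#1 (0.07). In the CRISPRi promoter library ATF3 and JUNB were higher and NR4A1 lower. In the lentiviral PRR11 and SKA2 set only FOSB, in the library labelled LV-SKA2, passed the rule. Over all 90 ratios of a factor to its own control, 19 passed, 14 higher and 5 lower. The share of all measured genes that passed ran from 0.252% to 15.4% by comparison. FOSB had too few reads to pass in the CRISPRd libraries, and ratios within a set share a control, so the 90 are not separate observations.

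Counts of called factors were read against all measured genes. Because the factors and the other gene lists were chosen with earlier results of these data known, these shares are a description and not a test. In LV-miR454, 6 of 10 factors were called, all higher, where 6.39% of 14912 genes passed the rule and 2.97% were higher. The median log2 ratio of the 10 was 1.10, beside -0.003 over all genes. In CRISPRd_miR301a-#2, 5 of 9 measured factors passed, 3 higher and 2 lower, where 10.9% of genes did (6.72% higher and 4.15% lower). In CRISPRd_miR454-#1 it was 4 of 9, 3 higher and 1 lower, where 9.71% did (6.61% higher and 3.1% lower). Their medians were 0.30 and 0.24, each beside -0.014 over all genes. The CRISPRi promoter library had 3 of 10, 2 higher and 1 lower, where 15.4% of genes passed (9.43% higher and 5.97% lower), with a median of 0.26 beside -0.038. In the library labelled LV-SKA2 1 of 10 passed, where 0.252% of genes did and 0.111% were lower. In LV-PRR11 0 of 10 passed, where 0.299% of genes did, and in the library labelled LV-P+S 0 of 10, where 0.261% did. It was also 0 of 10 in the library labelled LV-3+4, where 0.646% of genes passed, and in that labelled LV-miR301a, where 0.731% did. Between treated libraries, the library labelled LV-3+4 had the same 6 factors lower than LV-miR454, where 6.85% of genes passed and 3.14% were lower, and 0 of 10 apart from that labelled LV-miR301a, where 0.562% passed. The library labelled LV-P+S had 1 factor, FOSB, higher than that labelled LV-SKA2, where 0.245% passed and 0.0816% were higher, and 0 of 10 apart from LV-PRR11, where 0.298% passed.

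**Figure D1:**
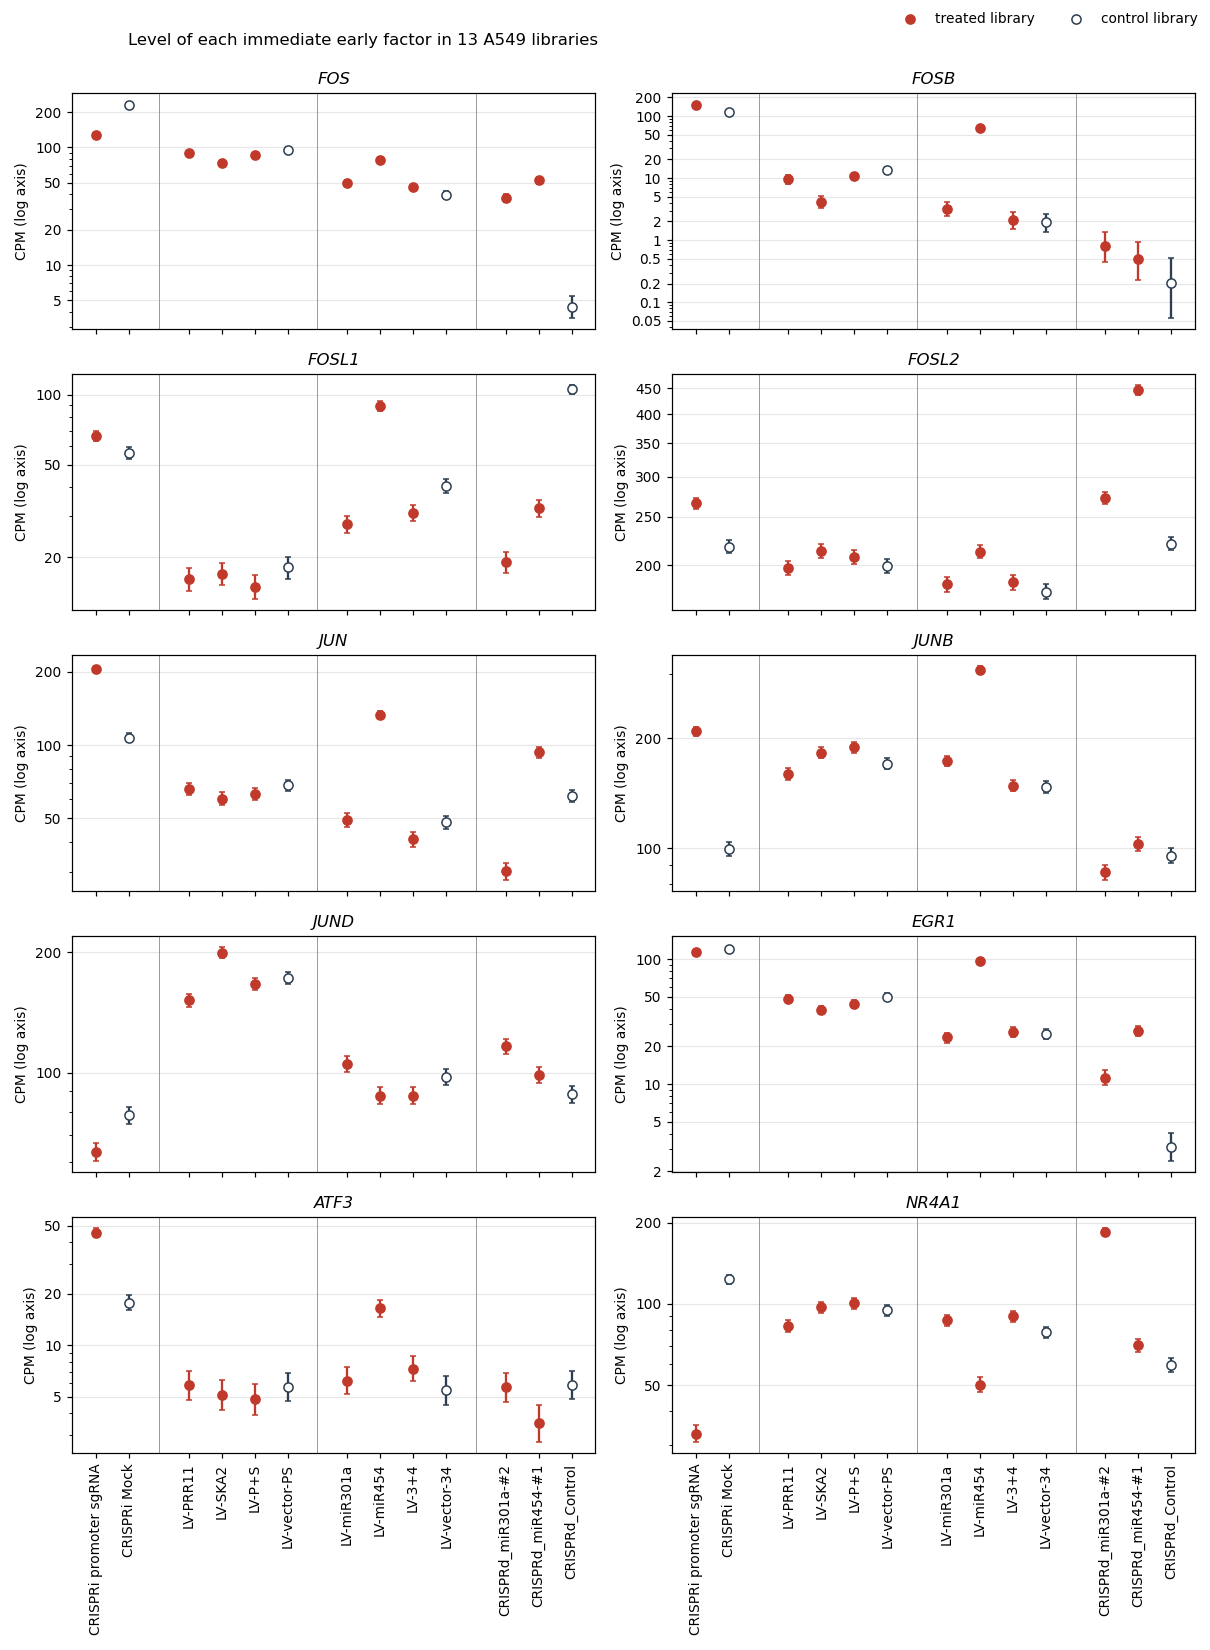
CPM of each of the 10 factors (log axis, 1 panel per gene) in the 13 libraries, with treated libraries as filled red points and control libraries as open points, grouped by experiment. Bars are exact 95% counting intervals. FOS is at 4.41 CPM in CRISPRd_Control and at 37.4 CPM or more in every other library, and FOSB spans 0.203 to 151 CPM.

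FOS, the founding member and the partner most tightly tied to a recent stimulus, had 37.4 CPM in CRISPRd_miR301a-#2 and 52.6 CPM in CRISPRd_miR454-#1, against 4.41 CPM in CRISPRd_Control. That is 8.49-fold higher (6.78 to 10.7) and 11.9-fold higher (9.57 to 15.03). The control library, with 87 reads, is the low one among the 7 libraries of its table, whose median is 46.2 CPM. In the microRNA set FOS had 50.0 CPM in the library labelled LV-miR301a, 78.2 CPM in LV-miR454 and 46.2 CPM in the library labelled LV-3+4, against 39.8 CPM in LV-vector-34. The ratio in LV-miR454, 1.97 (1.80 to 2.15), lies just under the 2-fold rule. FOS had 127 CPM in the CRISPRi promoter library, against 228 CPM in its mock, a ratio of 0.559 (0.534 to 0.586) that did not pass either. In the PRR11 and SKA2 set it had 89.6 CPM in LV-PRR11, 74.3 CPM in the library labelled LV-SKA2 and 86.1 CPM in the library labelled LV-P+S, against 95.8 CPM in LV-vector-PS, so all 3 were below the vector and none was called.

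FOSB, a close relative of FOS with a similarly inducible gene, had the widest span of the 10. In LV-miR454 it reached 65.2 CPM, from 1234 reads, against 1.94 CPM in LV-vector-34, from 37 reads. It was 33.7-fold higher (24.3 to 48.0), the second highest log2 ratio (4.75) among 14912 measured genes. The library labelled LV-miR301a had 3.18 CPM and the library labelled LV-3+4 had 2.09 CPM, ratios of 1.64 (1.08 to 2.54) and 1.08 (0.672 to 1.73) that did not pass. Set directly against LV-miR454, the library labelled LV-3+4 had 0.0320 of its FOSB level (0.0228 to 0.0439), so the high level was not seen in the library labelled for both microRNAs. FOSB lies inside the span of ERCC1, a DNA repair gene on the opposite strand, and the sources used here do not give the strand setting of the counts. ERCC1 itself had 176 CPM in LV-miR454 and 166 CPM in LV-vector-34, a ratio of 1.06 (1.01 to 1.12).

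In the PRR11 and SKA2 set, FOSB had 9.51 CPM in LV-PRR11, 4.17 CPM in the library labelled LV-SKA2 and 10.6 CPM in the library labelled LV-P+S, against 13.3 CPM in LV-vector-PS. The library labelled LV-SKA2 was the low one, with 78 reads against 250, or 0.314 of the vector (0.241 to 0.407). This was the sixth lowest log2 ratio (-1.56) of 13468 measured genes. The library labelled LV-P+S held 2.55 times its FOSB level (1.96 to 3.36). FOSB had 151 CPM in the CRISPRi promoter library and 117 CPM in its mock, both far above the other tables, but a level set across tables rests on separate gene lists. In the CRISPRd set its 15 reads in CRISPRd_miR301a-#2 and 9 in CRISPRd_miR454-#1, against 4 in CRISPRd_Control, were too few for the rule.

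The stretch before the start of FOSB, as RefSeq places it on GRCh38.p14 (chr19:45467746-45467995, plus strand), is shown because FOSB and EGR1, whose stretch follows further on, had the widest spans among the 7 libraries of the microRNA and CRISPRd table, 322-fold and 30.5-fold between the lowest and highest library. The FOSB span rests on 4 reads in its lowest library, CRISPRd_Control, at 0.203 CPM (0.0552 to 0.519), so its size is loosely set. Capitals mark the word TGACG, the core of the site for CREB and ATF factors, here 60 to 56 bases before the start.
FOSB: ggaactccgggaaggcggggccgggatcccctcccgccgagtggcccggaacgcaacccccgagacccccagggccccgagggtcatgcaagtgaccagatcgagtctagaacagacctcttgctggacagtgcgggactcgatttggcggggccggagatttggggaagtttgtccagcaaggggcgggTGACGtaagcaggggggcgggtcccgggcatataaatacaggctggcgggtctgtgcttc
Searched on both strands over the 250 bases before each RefSeq start, TGACG was found for 7 of the 9 factors in the sequence table and in 21.2% of all 35116 such stretches. The AP-1 word TGANTCA was found for 0 of 9 and in 6.57% of stretches.

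FOSL1 encodes FRA1, a FOS protein that lacks the strong activation domain of FOS and is a driver of invasion in many carcinomas. It ran opposite to FOS in the CRISPRd set. It had 19.1 CPM in CRISPRd_miR301a-#2 and 32.5 CPM in CRISPRd_miR454-#1, against 105 CPM in CRISPRd_Control. The ratios were 0.181 (0.162 to 0.203) and 0.309 (0.281 to 0.339). CRISPRd_Control was the high library here, the highest of all 13. In the microRNA set FOSL1 had 27.8 CPM in the library labelled LV-miR301a, 89.0 CPM in LV-miR454 and 31.1 CPM in the library labelled LV-3+4, against 40.4 CPM in LV-vector-34. LV-miR454 was thus 2.20-fold above the vector (2.02 to 2.404) while the other two treated libraries lay below it, at 0.688 (0.615 to 0.768) and 0.770 (0.691 to 0.858), short of the rule. Elsewhere FOSL1 had 66.3 CPM in the CRISPRi promoter library, against 56.1 CPM in its mock, and 14.9 to 17.0 CPM in the 3 treated libraries of the PRR11 and SKA2 set, against 18.1 CPM in their vector.

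FOSL2, which encodes FRA2, was the steadiest of the family apart from 1 library. It had 272 CPM in CRISPRd_miR301a-#2 and 447 CPM in CRISPRd_miR454-#1, against 220.8 CPM in CRISPRd_Control. The second of these, 2.03-fold higher (1.95 to 2.10), was called, but with library totals alone its log2 ratio was 0.90 and it was not. In the other 8 comparisons with a control its log2 ratio lay between -0.01 and 0.30.

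FOSL1 and FOSL2 are the members whose 3′ untranslated regions hold a match to the seed of miR-301a and miR-454. The mature 3p strands of miR-301a and miR-454 are given here from RefSeq (GRCh38.p14, chr17:59151149-59151171 and chr17:59137787-59137809, minus strand), with the seed, bases 2 to 8, in capitals. It is the same in both.
miR-301a-3p: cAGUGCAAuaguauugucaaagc
miR-454-3p: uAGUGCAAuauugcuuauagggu
The matches follow in the longest GENCODE 29 untranslated region of each gene (GRCh38), at chr11:65892652-65892675 on the minus strand for FOSL1 and at chr2:28414248-28414270 and chr2:28417150-28417173 on the plus strand for FOSL2, with the matching bases in capitals. A match was TTGCACT, the complement of bases 2 to 8, or TGCACTA, the complement of bases 2 to 7 with an A after it. The FOSL2 first site is of the second, shorter form, and the other sites hold TTGCACT with an A after it.
FOSL1 site: agcacaatTTGCACTAaatcagag
FOSL2 first site: tgttttcgTGCACTAgacacaca
FOSL2 second site: tacagtatTTGCACTAaagaaagc
A match of either form was found in 2 of the 10 factors and in 17.2% of 19101 coding genes with an untranslated region. It is a description of the sequence, and mature microRNAs were not measured in these poly(A) libraries.

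JUN, the prototype AP-1 partner and a target of JNK signalling, had 49.3 CPM in the library labelled LV-miR301a, 133 CPM in LV-miR454 and 41.0 CPM in the library labelled LV-3+4, against 48.1 CPM in LV-vector-34. LV-miR454 was the high library, 2.76-fold above the vector (2.56 to 2.98). JUN divided the CRISPRd libraries, with 30.2 CPM in CRISPRd_miR301a-#2 and 93.2 CPM in CRISPRd_miR454-#1, against 61.7 CPM in CRISPRd_Control. The first ratio, 0.490 (0.443 to 0.542), was called, though not with a pseudocount of 2 CPM, and the second, 1.51 (1.40 to 1.63), was not. In the CRISPRi promoter library JUN had 205 CPM, against 107 CPM in its mock, and this 1.91-fold difference (1.82 to 2.01) fell just short of the rule.

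JUNB, which often restrains growth that JUN promotes, had 307 CPM in LV-miR454, against 147 CPM in LV-vector-34, and was 2.09-fold higher (2.00 to 2.19). It was 2.10-fold higher (1.99 to 2.21) in the CRISPRi promoter library, at 209 CPM, against 99.5 CPM in its mock. JUNB lies within the span of HOOK2 on the opposite strand, which was 1.15-fold (0.9503 to 1.39) and 1.42-fold (1.21 to 1.67) above the control in the same libraries. JUND, the JUN protein that resting cells keep, was called in 0 of 9 comparisons. Its log2 ratios lay between -0.30, in the CRISPRi promoter library, and 0.40, in CRISPRd_miR301a-#2.

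**Figure D2:**
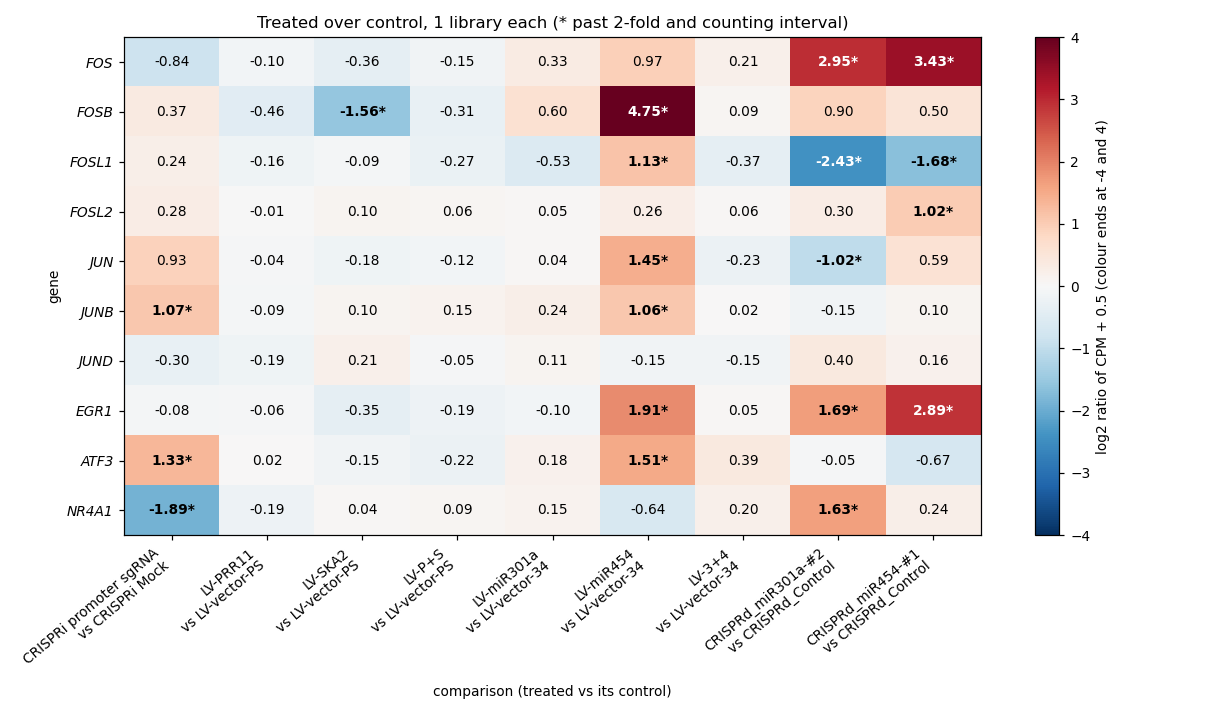
Log2 ratio of CPM plus 0.5 for the 10 factors (rows) in the 9 comparisons of a treated library with its own control (columns), 1 library each, red for higher and blue for lower in the treated library. Bold values with a star passed the rule. The columns for the PRR11 and SKA2 set, the library labelled LV-miR301a and the library labelled LV-3+4 hold 1 star in all, FOSB at -1.56.

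The make-up of the families was compared per length, as CPM per kb of the longest coding transcript in GENCODE 29. FOS made up 50.2% of the FOS family in LV-vector-PS and 52.1% in CRISPRi_Mock sgRNA, but 26.5% in LV-vector-34 and 2.08% in CRISPRd_Control. In CRISPRd_Control FOSL1 was 64.3% of the family. FOSL2 led with 58.3% in CRISPRd_miR301a-#2 and 60.3% in CRISPRd_miR454-#1, against 33.6% in CRISPRd_Control. This lead was not limited to the CRISPRd set. FOSL2 was also the largest part in LV-vector-34, at 38.0%. The same held for the library labelled LV-3+4, at 40.4%, and for that labelled LV-miR301a, at 40.2%. FOSL2 had 22.9% in LV-miR454, below FOSL1. In LV-miR454 FOSB was 12.5% of the family and FOSL1 38.5%, against 0.737% and 34.8% in LV-vector-34. Per length, the FOS family summed to 139 CPM per kb in LV-miR454, against 69.5 CPM per kb in its vector. JUNB and JUND held most of the JUN family in every library, and in LV-miR454 JUNB alone was 66.6%, against 55.0% in LV-vector-34.

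**Figure D3:**
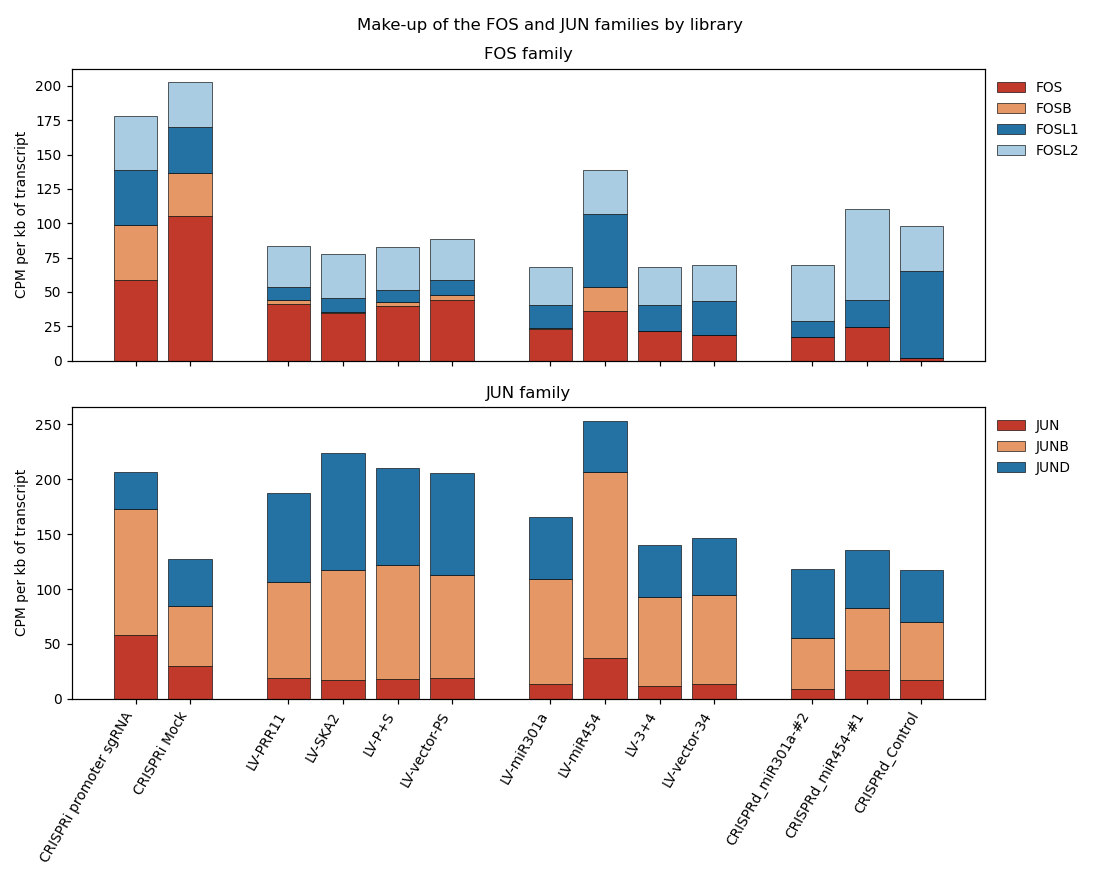
Stacked bars of CPM per kb of transcript for the 4 FOS genes (top) and the 3 JUN genes (bottom) in each library, with each control at the right of its set. FOS (red) is nearly missing from the bar of CRISPRd_Control, where FOSL1 (dark blue) is 64.3% of the family.

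In the CRISPRd set EGR1 had 11.2 CPM in CRISPRd_miR301a-#2 and 26.5 CPM in CRISPRd_miR454-#1, against 3.14 CPM in CRISPRd_Control. That is 3.57-fold (2.68 to 4.82) and 8.42-fold (6.45 to 11.2) higher. As for FOS, the control is the low library of its table, whose median is 25.2 CPM, and with LV-vector-34 as control the log2 ratios were -1.13 and 0.07. In the microRNA set it had 23.6 CPM in the library labelled LV-miR301a, 95.9 CPM in LV-miR454 and 26.1 CPM in the library labelled LV-3+4, against 25.2 CPM in LV-vector-34. LV-miR454 was the high library, at 3.80-fold (3.44 to 4.21). In the PRR11 and SKA2 set EGR1 had 48.0 CPM in LV-PRR11, 39.0 CPM in the library labelled LV-SKA2 and 43.6 CPM in the library labelled LV-P+S, against 49.9 CPM in LV-vector-PS. In the CRISPRi promoter library EGR1 had 114 CPM, against 119.9 CPM in its mock, with an interval of the ratio, 0.896 to 1.00, that reached equality.

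The stretch before the RefSeq start of EGR1 (GRCh38.p14, chr5:138465229-138465478, plus strand) holds a pair of CArG boxes, the binding word of serum response factor, 105 to 96 and 83 to 74 bases before the start. Capitals mark them and the word TGACG, written CGTCA where it lies on the other strand.
EGR1: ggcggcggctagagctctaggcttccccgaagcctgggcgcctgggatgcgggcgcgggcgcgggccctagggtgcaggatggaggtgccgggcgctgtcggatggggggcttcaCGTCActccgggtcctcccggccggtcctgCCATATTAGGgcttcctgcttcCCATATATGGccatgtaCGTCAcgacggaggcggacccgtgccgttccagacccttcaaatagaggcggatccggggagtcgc
EGR1 was the 1 factor of 9 with a CArG box in this window, which 1.16% of all stretches held. TGACGTCA, the full CREB and ATF word, was found for JUND alone and in 1.65% of stretches. The EGR word GCGGGGGCG was found for 0 of 9, and in 4.72% of stretches.

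ATF3, a repressor or activator induced by stress, had 6.21 CPM in the library labelled LV-miR301a, 16.5 CPM in LV-miR454 and 7.31 CPM in the library labelled LV-3+4, against 5.44 CPM in LV-vector-34. LV-miR454 was 3.03-fold higher (2.42 to 3.82). In the CRISPRi promoter library it had 45.6 CPM, the highest of the 13, against 17.8 CPM in its mock, and was 2.56-fold higher (2.27 to 2.90). ATF3 is itself a target of ATF4, the factor of amino acid and unfolded protein stress. Of 8 measured genes of that response, 2 were called in the CRISPRi promoter library, where 15.4% of all genes were. They were SESN2 (2.52-fold higher) and DDIT3 (2.45-fold). In LV-miR454 0 were higher and 1 lower, DDIT4 (log2 -1.17), where 6.39% of all genes were called. In the library labelled LV-3+4 1 was higher, CHAC1 (log2 1.17), where 0.646% of all genes were called and ATF3 was not. In CRISPRd_miR301a-#2 2 were lower than in CRISPRd_Control, ASNS (-1.71) and CHAC1 (-1.57), where 10.9% of all genes were called. CHAC1 had 6.09 CPM there, against 19.1 CPM in CRISPRd_Control and 4.45 CPM in LV-vector-34. For this gene CRISPRd_Control was itself 4.28-fold above LV-vector-34 (3.38 to 5.49).

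NR4A1, also called NUR77, was called in the CRISPRi promoter library and in CRISPRd_miR301a-#2. It had 33.0 CPM in the CRISPRi promoter library, the lowest of the 13, against 124 CPM in its mock, a ratio of 0.267 (0.246 to 0.290). In LV-miR454, where most other factors were high, NR4A1 had 50.1 CPM, against 78.3 CPM in LV-vector-34, a ratio of 0.639 (0.589 to 0.694) short of the rule. It was highest in CRISPRd_miR301a-#2, at 185 CPM, with 70.1 CPM in CRISPRd_miR454-#1, against 59.3 CPM in CRISPRd_Control. The first was 3.11-fold higher (2.91 to 3.33). Its relatives in the same receptor family were also above CRISPRd_Control in CRISPRd_miR301a-#2, NR4A2 6.44-fold (4.79 to 8.82) and NR4A3 6.38-fold (4.20 to 10.1). The control was low for both. NR4A2 had 17.0 CPM in CRISPRd_miR301a-#2, against 2.63 CPM in CRISPRd_Control and 11.4 CPM in LV-vector-34. NR4A3 had 8.41 CPM, against 1.32 CPM and 5.02 CPM in the same controls. NR4A2 was lower in the CRISPRi promoter library (log2 -1.50).

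The rest of the immediate early programme was read from a list of 31 other genes, of which 26 were measured in each comparison. In LV-miR454 6 were higher and 2 lower, where 6.39% of all genes were called. CCN1 and CCN2, matrix signalling genes also driven by YAP, were 3.68-fold (3.47 to 3.91) and 3.15-fold (2.93 to 3.38) higher, and HBEGF, a ligand of the EGF receptor, 2.28-fold (1.76 to 2.98). PTGS2, the inducible cyclooxygenase, was lower there, at 34.8 CPM against 97.5 CPM in LV-vector-34. In CRISPRd_miR301a-#2 5 were higher and 1 lower, where 10.9% of all genes were called, and PTGS2 had 415 CPM, against 64.7 CPM in CRISPRd_Control. In CRISPRd_miR454-#1 2 were higher and 0 lower, a share below the 9.71% of all genes, ZFP36, which destabilises cytokine messages, and PTGS2. Of the same 26, 4 were higher and 4 lower in the CRISPRi promoter library, where 15.4% of all genes were called, with CCN2 at 4.29-fold (4.10 to 4.50). None was called in LV-PRR11 or the libraries labelled LV-SKA2, LV-P+S, LV-3+4 and LV-miR301a.

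Feedback and output genes of ERK, the kinase that drives much of this programme, were read in the same way. Of 15 measured, 0 were higher and 2 lower in LV-miR454, where 6.39% of all genes were called, ETV4 (log2 -1.17) and SPRY1 (-1.10). In CRISPRd_miR301a-#2 3 of 14 were higher (10.9% of all genes called), the phosphatases DUSP6 (1.55) and DUSP4 (1.25) and SPRY1 (1.28). In CRISPRd_miR454-#1 it was 2 of 15 (9.71% of all genes), SPRY1 (1.19) and EPHA4 (1.05). DUSP6 had 18.6 CPM in CRISPRd_miR301a-#2, against 6.03 CPM in CRISPRd_Control and 19.5 CPM in LV-vector-34. SPRY1 had 3.67 CPM in CRISPRd_miR301a-#2 and 3.40 CPM in CRISPRd_miR454-#1, against 1.22 CPM and 2.62 CPM in the same controls. Of the other leucine zipper genes that pair with AP-1 proteins, 0 of 10 were called in LV-miR454. In each CRISPRd library 1 of 9 was called, close to the shares of all genes just given. MAFK was higher in CRISPRd_miR301a-#2 (log2 1.42), BATF2 in CRISPRd_miR454-#1 (1.19), and MAF, from 2 reads in the mock, in the CRISPRi promoter library (3.44).

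Reported AP-1 targets were called in 4 of the 9 treated libraries. In LV-miR454 3 of 12 measured were higher and 1 lower, where 6.39% of all genes were called. The cytokine IL11 had 46.0 CPM there, against 13.3 CPM in LV-vector-34, and the chromatin protein HMGA2 was the lower one, at 12.6 CPM against 35.1 CPM. In CRISPRd_miR301a-#2 2 of 12 were higher and 3 lower (10.9% of all genes). HMGA2 had 1.24 CPM there, against 29.03 CPM in CRISPRd_Control, and SPP1, which encodes osteopontin, 199 CPM against 72.2 CPM. In LV-vector-34, the other control of the same table, HMGA2 had 35.1 CPM and SPP1 170 CPM. In CRISPRd_miR454-#1 4 of 13 were higher and 4 lower (9.71% of all genes), with IL6 at 6.64 CPM against 0.456 CPM and CXCL8, a neutrophil chemokine, at 102 CPM against 29.4 CPM. The CRISPRi promoter library had 10 of 14 higher and 0 lower (15.4% of all genes), with CXCL8 (log2 3.37) and IL6 (2.90) among them, while of the AP-1 genes themselves JUNB was called there. None was called in LV-PRR11 or the libraries labelled LV-SKA2, LV-P+S, LV-3+4 and LV-miR301a.

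The controls of the microRNA and CRISPRd sets share a table and can be set side by side. CRISPRd_Control had 0.111 of the FOS level of LV-vector-34 (0.0878 to 0.139), 0.125 of its EGR1 level (0.0940 to 0.163) and 0.105 of its FOSB level (0.0271 to 0.291), and 2.60 times its FOSL1 level (2.396 to 2.83). These are 4 calls among the 10 factors, 3 lower and 1 higher, where 4.35% of 14849 genes passed (2.62% lower and 1.73% higher). The FOSB call rests on 4 reads against 37 and ended with a 5 CPM filter or a pseudocount of 2 CPM. FOS ranked 15 from the lowest log2 ratio and EGR1 21. NR4A2, NR4A3, CCN2, ZFP36 and the ERK feedback gene DUSP6 were also lower in CRISPRd_Control (log2 -1.92, -1.60, -1.40, -1.02 and -1.61).

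Set against LV-vector-34 in place of their own control, the CRISPRd libraries gave other answers for several factors. FOS had log2 ratios of -0.087 in CRISPRd_miR301a-#2 and 0.40 in CRISPRd_miR454-#1, against 2.95 and 3.43 with CRISPRd_Control, and neither was called. EGR1 was at -1.13, a call in the opposite direction, and 0.07, against 1.69 and 2.89. FOSL1 was at -1.06 and -0.31, against -2.43 and -1.68. FOSL1 was called lower with either control in CRISPRd_miR301a-#2, but only with CRISPRd_Control in CRISPRd_miR454-#1. NR4A1 in CRISPRd_miR301a-#2 (1.23 against 1.63) and FOSL2 in CRISPRd_miR454-#1 (1.33 against 1.02) were called higher with either control. FOSB, with 9 reads in CRISPRd_miR454-#1 against 37 in LV-vector-34, was called lower (-1.29). In all, 3 factors were called with this control in CRISPRd_miR301a-#2, where 8.84% of genes passed, and 2 in CRISPRd_miR454-#1, where 9.27% did. The libraries labelled as knockouts also differed from each other. CRISPRd_miR301a-#2 had 0.424 (0.358 to 0.4997) of the EGR1 level of CRISPRd_miR454-#1. For JUN it was 0.324 (0.294 to 0.357), and for NR4A1 2.64 (2.47 to 2.81). That was 3 of 9 factors, 1 higher and 2 lower, where 6.4% of genes passed (2.76% higher and 3.64% lower). With CRISPRd_Control in place of LV-vector-34, LV-miR454 had 6 calls, where 5.59% of genes passed, with FOS among them (4.00) and FOSL1 not (-0.24). The libraries labelled LV-3+4 and LV-miR301a then had 4 calls each (FOS, FOSB and EGR1 higher, FOSL1 lower), where 4.37% and 4.92% of genes passed and they had 0 with their own vector.

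**Figure D4:**
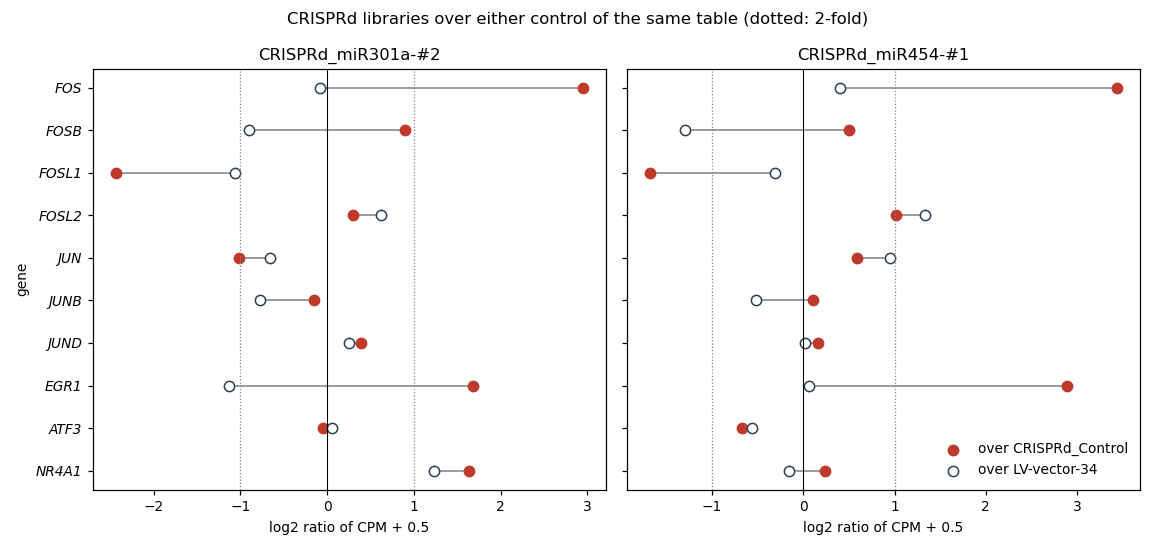
Log2 ratio of CPM plus 0.5 for the 10 factors in CRISPRd_miR301a-#2 (left) and CRISPRd_miR454-#1 (right), over CRISPRd_Control (filled) and over LV-vector-34 (open), the controls of the same table. Dotted lines mark 2-fold. The points for FOS and EGR1 lie about 3 log2 units apart. Those for NR4A1 and FOSL1 in CRISPRd_miR301a-#2 and FOSL2 in CRISPRd_miR454-#1 stay beyond 2-fold with either control.

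Heat shock genes, which answer handling of cells, were called at shares near or below those of all genes, except for 2 of 10 in CRISPRd_miR454-#1, where 9.71% of genes were. HSPA1B was called higher in CRISPRd_miR301a-#2 (3.04-fold), 1 of 10 beside 10.9% of all genes, and HSPA1B (3.73-fold) and HSPA1A (2.26-fold), near-identical genes whose reads may be split, in CRISPRd_miR454-#1. Their list summed to 6262 CPM and 6865 CPM, against 5710 CPM in CRISPRd_Control. In LV-miR454 0 of 10 were called, where 6.39% of genes were, at 5997 CPM against 5008 CPM in LV-vector-34, and in the CRISPRi promoter library 1 was higher, HSPB1 (2.04-fold), where 15.4% of genes were called, at 4419 CPM against 6582 CPM in the mock. The sums ran from 4419 CPM to 6865 CPM over the 13 libraries, and their part in the levels of the factors was not tested. In LV-miR454 1 of 10 A549 markers was called, where 6.39% of genes were, CDH1 (E-cadherin, log2 -1.03), and the other-cell markers summed to 91.8 CPM, against 55.3 CPM in the vector, with the fibroblast collagen COL1A1 higher (1.57), at 75.5 CPM against 25.01 CPM, and ACTA2, of smooth muscle and myofibroblasts, at 14.8 CPM against 29.1 CPM. The library labelled LV-miR301a, with 0 called factors, had COL1A1 higher as well (1.34). The CRISPRi promoter library had 2 of 10 A549 markers lower, CDH1 (-1.59) and EPCAM (-1.53), where 15.4% of genes were called, and ACTA2 (1.82) and COL1A1 (1.46) higher. In the CRISPRd libraries 3 of 10 A549 markers were higher in each, where 10.9% and 9.71% of genes were called, CDH1 among them (1.48 in CRISPRd_miR301a-#2 and 1.71 in CRISPRd_miR454-#1), and the leukocyte marker PTPRC had 75 reads in CRISPRd_miR301a-#2, against 1 in CRISPRd_Control. The part of these markers in the levels of the factors was not tested.

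Genes with the most similar pattern over the 7 libraries of the microRNA and CRISPRd table were found by the root mean square difference of their centred log2 levels, among 11522 genes at 5 CPM or more on average. For FOSB, whose own root mean square deviation was 2.01, the nearest were LDLRAD2 (0.95), ITGA11 (1.12) and CCN2 (1.14). LDLRAD2 had 39.6 CPM in LV-miR454 and 1.29 to 2.83 CPM in the other 6 libraries. Without LV-miR454, where FOSB is high, neither LDLRAD2 nor ITGA11 reaches 5 CPM on average, so the filter kept them through the same library. For FOS, with a deviation of 1.21, CA9 (0.54), PDZK1 (0.57) and NEFL (0.61) were nearest, and EGR1 stood at 0.57. CA9, a carbonic anhydrase known from hypoxia, had 36.3 CPM in CRISPRd_miR301a-#2 and 55.9 CPM in CRISPRd_miR454-#1, against 6.08 CPM in CRISPRd_Control. The lentiviral libraries of that table held 29.2 to 35.5 CPM, so CRISPRd_Control was the low library, as for FOS. For EGR1, with a deviation of 1.33, CCN2 (0.70), RND1 (0.76) and SYTL2 (0.77) were nearest outside the factors. These are descriptions over 7 single libraries.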

How the data were processed

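Poly(A) RNA of 13 A549 libraries, 1 per group, was sequenced. The deposited values are expected counts in 3 tables, not normalised, which the authors made with RSEM 1.3.3 and Bowtie2 2.3.5.1 on GRCh38.p13, per the submitters' processing notes. The sources used here name neither the annotation release nor the strand setting. Expected counts were rounded. Left out were 181 entries without a name in the CRISPRi table (0.355% to 0.431% of counts). Repeated entries of a symbol were summed, including 4840 numbered copies in the microRNA and CRISPRd table (2.02% of counts). No factor has such a copy.

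TMM scaling of library sizes used edgeR 4.0.16 in R 4.3.3, separately per table. A gene counted as measured with at least 20 reads over both libraries and 1 CPM in either. Ratios have exact Clopper-Pearson 95% intervals, conditional on both counts. Levels in the plot have exact Poisson intervals. Intervals cover counting error only. Log2 ratios use CPM plus 0.5 and understate changes of low genes. A count of 3 is 0.136 to 0.165 CPM. With 1 library per group, no test was run and no p-value is given. The code of the size rule was tested on simulated counts, which does not calibrate the rule between conditions. Named beside the 10 factors are up to 4 called genes per list, those with the largest ratios, and the 3 nearest genes in pattern. A few of these list genes are not reported here. Gene positions, lengths and untranslated regions come from GENCODE 29 (GRCh38), and promoters and mature microRNAs from RefSeq (GRCh38.p14). Older symbols of CCN1 and CCN2 were matched through RefSeq. The members and lists were chosen with earlier results of these data known. Alternatives were other scalings, filters, pseudocounts, a 1.5-fold rule, the first entry of a symbol, and the other control of the same table.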

Additional observations from a re-analysis of the deposited data

How the results depend on the processing

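No paired analysis was possible because each group holds 1 library. Median-of-ratios size factors, no filter on low counts, a pseudocount of 0.1 CPM and the first entry of a symbol changed none of the 150 ratios of a factor in a comparison as to its call. Library totals alone ended 1 call, the 5 CPM filter 1 and a pseudocount of 2 CPM 3. A 1.5-fold rule added 13. With it the called factors became 5 in the CRISPRi promoter library (35.2% of all genes called) and 1 in the library labelled LV-miR301a (2.58%). Between the libraries labelled as knockouts they became 6 (14.9%). They became 8 in LV-miR454, 7 higher and 1 lower (18.3%), and 6 in CRISPRd_miR454-#1 (22.7%). The library labelled LV-3+4 then had 8 set against LV-miR454 (19.3%), and the controls of the shared table differed in 5 (12.3%). The other control of the same table gave 4 called factors in the library labelled LV-miR301a (4.92% of all genes), 4 in the library labelled LV-3+4 (4.37%), 3 in CRISPRd_miR301a-#2 (8.84%) and 2 in CRISPRd_miR454-#1 (9.27%). It turned the sign of FOSL1 in LV-miR454 (-0.24) and of FOS (-0.087) and EGR1 (-1.13) in CRISPRd_miR301a-#2. The cause was not tested. FOSB in the CRISPRd libraries had 4 to 15 reads, too few for the rule.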
